A study of Mus musculus with 3 samples.

Results

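The genes described here are 9 enzymes that lengthen fatty acids or put double bonds into them in mouse hepatocytes: the desaturases Scd1, Scd2, Fads1 and Fads2 and the elongases Elovl1, Elovl2, Elovl3, Elovl5 and Elovl6. They were taken by symbol from the 32285 features of the deposited matrices, and all 9 symbols were found once. Their unique molecular identifier (UMI) counts were read in barcodes with at least 200 detected genes and at most 50% mitochondrially encoded counts, which 8674 of 16918 barcodes met. The cells were primary hepatocytes of WT mice, released by collagenase perfusion after 12 weeks on a diet and profiled with a droplet kit that counts the 3′ ends of transcripts. One library came from mice on a high fat diet labelled 60% HFD to which 0.25% hyodeoxycholic acid, a bile acid, was added (HFD_HDCA), one from mice on the 60% HFD alone (HFD), and one from mice on a normal diet (ND). No treatment beyond the diets is given in the labels. The sources used here do not give the age, sex or number of mice behind a library, nor the hour at which cells were isolated.

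Saturated fatty acids made by the liver are lengthened by elongases in the endoplasmic reticulum and then receive a double bond from stearoyl-CoA desaturase, which yields the monounsaturated acids stored in triglyceride. A separate route uses the essential fatty acids of the diet: FADS2 and FADS1 add double bonds in alternation with the elongases ELOVL5 and ELOVL2, which yields arachidonic and docosahexaenoic acid for membranes. Genes of both routes are known targets of the transcription factor SREBP-1c, Scd1 is also a target of LXR and ChREBP, and dietary polyunsaturated fat is known to repress several of them in liver.

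With 1 library for each diet there is no spread between replicates, so no test was made, and a difference between libraries cannot be told apart from a difference between the mice or preparations behind them. Levels are counts per 1000000 nuclear-encoded UMIs (CPM) summed over the retained barcodes. Their 95% intervals are exact Poisson. Log2 ratios were taken after adding 0.5 to each count, while their 95% intervals are exact conditional binomial on the counts without that addition. Both kinds of interval cover counting error only. A gene was called higher or lower when the ratio was at least 2-fold, and it was measured when its count summed over the 3 libraries was at least 100, which 7855 genes met. The retained barcodes numbered 3000 for HFD_HDCA, 2898 for HFD and 2776 for ND, with medians of 1116.5 UMIs in HFD_HDCA, 868 in HFD and 944.5 in ND. Nuclear-encoded UMIs summed to 5795200 in HFD_HDCA, 3734740 in HFD and 4274662 in ND. All 12 hepatocyte markers were detected in every library, at 106758 CPM in HFD_HDCA, 93197 CPM in HFD and 110105 CPM in ND. The 14 sinusoidal endothelial markers summed to 138 CPM in HFD_HDCA, 96.4 CPM in HFD and 561 CPM in ND. The 5 erythroid markers summed to 84.4 CPM in HFD_HDCA, 416 CPM in HFD and 91.5 CPM in ND, where the 4 haemoglobin genes were at 0. Of the barcode sequences of retained cells, 1 was shared by HFD_HDCA and HFD, 1 by HFD_HDCA and ND, and 5 by HFD and ND.

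In mm10, the build of the counts, 5 of the 9 genes lie on chromosome 19. Scd1 (chr19:44394455-44407879, minus strand) and Scd2 (chr19:44293674-44306864, plus strand) lie close together there, as do Fads2 (chr19:10062765-10101746, minus strand) and Fads1 (chr19:10182888-10196877, plus strand). Elovl3 (chr19:46131897-46135694, plus strand) is the fifth. The others are Elovl1 (chr4:118428093-118432953, plus strand), Elovl2 (chr13:41182381-41220405, minus strand), Elovl5 (chr9:77917364-77984519, plus strand) and Elovl6 (chr3:129532355-129638495, plus strand). Scd1 shared 58 of the 4888 distinct 90-base words of its transcripts with Scd2, 96 with Scd3 and 27 with Scd4, so a small share of its sequence is common to its copies. No such word was shared between the Fads genes or between the Elovl genes. On the opposite strand Elovl1 overlaps Cdc20, Elovl3 overlaps Pitx3 and Elovl6 overlaps the antisense gene Gm35986, and the sources used here do not say whether counting used strand.

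Of the 9 genes, 5 had an entry in the RefSeq table of upstream sequence (GRCm38.p6). The sequences of Elovl2, Elovl5 and Elovl6 are shown because these elongases differed between diets or between lobule zones, and because their windows differ in the motifs they hold. Each runs 5′ to 3′ on the strand of the gene and ends before the first exon of any gene, on either strand, in the annotation used. The Elovl6 sequence therefore ends at 129532256, short of the annotated start of Elovl6 at 129532355. Capitals mark matches to 6 motifs on either strand: CCAAT, the sterol response element-like TCACNCCAC, the E-box CACGTG, the GC box GGGCGG, and direct repeats of the nuclear receptor half-site AGGTCA spaced by 1 or by 4 bases. Elovl2 at chr13:41220406-41220653, Elovl5 at chr9:77917115-77917363 and Elovl6 at chr3:129532136-129532256 read as follows.
Elovl2: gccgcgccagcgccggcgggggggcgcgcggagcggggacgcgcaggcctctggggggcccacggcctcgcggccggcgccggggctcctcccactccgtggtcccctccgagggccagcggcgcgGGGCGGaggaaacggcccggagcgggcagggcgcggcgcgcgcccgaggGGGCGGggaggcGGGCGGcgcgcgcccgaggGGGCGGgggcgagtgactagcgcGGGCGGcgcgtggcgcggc
Elovl5: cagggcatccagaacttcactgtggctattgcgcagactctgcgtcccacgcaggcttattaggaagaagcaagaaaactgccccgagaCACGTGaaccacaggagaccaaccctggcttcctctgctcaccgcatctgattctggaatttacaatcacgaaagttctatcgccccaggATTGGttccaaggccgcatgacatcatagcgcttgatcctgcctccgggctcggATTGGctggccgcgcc
Elovl6: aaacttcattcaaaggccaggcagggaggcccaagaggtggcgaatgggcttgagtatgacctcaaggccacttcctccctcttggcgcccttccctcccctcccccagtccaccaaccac
The Elovl2 sequence held 5 GC boxes, a motif present in 32.7% of 32851 RefSeq windows of 250 bases. The Elovl5 sequence held 1 CACGTG E-box, found in 6.02% of windows, and 2 CCAAT boxes on the reverse strand, found in 33.8%. None of the motifs was in the 121 bases of Elovl6. The sterol response element-like motif, present in 1.05% of windows, was in none of the 3 sequences, nor was the direct repeat spaced by 1 base (0.0335% of windows) or by 4 bases (0.0152%).

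The HFD library differed from ND mostly in opposite directions in the 2 routes, although Elovl6 of the saturated to monounsaturated route was higher (log2 ratio 0.88). Scd1 and Elovl3 of the saturated to monounsaturated route were lower by at least 2-fold, while Fads2 of the polyunsaturated route was higher by at least 2-fold. That is 1 of 8 measured members higher and 2 of 8 lower, where all measured genes had 2.85% past 2-fold on the higher side and 3.53% on the lower side. Over all measured genes the median log2 ratio was -0.06. With median-of-ratios scaling, which raised all ratios by 0.13, Fads1 and Elovl6 also passed, making 3 higher.

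Scd1, the stearoyl-CoA desaturase that makes oleate and palmitoleate, stood at 2412 CPM in HFD_HDCA (13980 counts, interval 2373 to 2453), 3177 CPM in HFD (11866 counts, 3120 to 3235) and 9332 CPM in ND (39890 counts, 9240 to 9424). ND was far above both high fat libraries, and none of the intervals overlapped. The log2 ratio of HFD to ND was -1.55 (-1.58 to -1.52), a level 2.94-fold lower, and 99 of the 7855 measured genes had a lower ratio. The ratio was -0.85 in the periportal zone of the cells, short of 2-fold, as described below. In the endothelial-like cluster, a cell type that is not the source of hepatocyte transcripts, Scd1 read 1249 CPM in HFD_HDCA, 1940 CPM in HFD and 6417 CPM in ND, the same order of libraries. The part of free RNA or mixed droplets in the Scd1 levels was not tested.

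Elovl3, an elongase of saturated and monounsaturated acyl chains that is known for a daily rhythm in mouse liver, stood at 45.7 CPM in HFD_HDCA (265 counts), 70.4 CPM in HFD (263 counts) and 163 CPM in ND (695 counts). It was highest in ND, and the 3 intervals did not overlap. Relative to ND, HFD had a log2 ratio of -1.21 (-1.42 to -1.0004). Clock genes, looked at after the values were seen, also differed between libraries. Dbp read 102 CPM in HFD_HDCA, 71.5 CPM in HFD and 12.4 CPM in ND. Arntl, which peaks at the opposite time of day, read 1.55 CPM in HFD_HDCA, 3.21 CPM in HFD and 12.4 CPM in ND. The part of sampling time in the Elovl3 values, or in those of any other gene compared between libraries, was not tested.

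Elovl6, which lengthens palmitate to stearate and so feeds Scd1, had the opposite sign to Scd1. It stood at 106 CPM in HFD_HDCA (615 counts), 97.5 CPM in HFD (364 counts) and 52.9 CPM in ND (226 counts). The intervals of HFD_HDCA (97.9 to 115) and HFD (87.7 to 108) overlapped, and both lay above that of ND (46.2 to 60.2). HFD stood to ND at a log2 ratio of 0.88 (0.64 to 1.13), below the 2-fold call, and at -0.17 in the pericentral range shared by the libraries. Elovl1, an elongase of very long saturated and monounsaturated chains, stood at 14.3 CPM in HFD_HDCA (83 counts), 11.5 CPM in HFD (43 counts) and 19.9 CPM in ND (85 counts). These few counts gave a log2 ratio of HFD to ND of -0.78 (-1.35 to -0.24).

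Scd2, the isoform known from brain and from the newborn liver, had 6 counts in HFD_HDCA, 4 in HFD and 6 in ND, too few to be measured. Of these 16 counts, 10 were in the 122 cells of a cluster led by macrophage and immunoglobulin genes (91.5 CPM) and 3 in the 150 cells of the endothelial-like cluster (21.6 CPM). The remaining 3 counts were spread over 8402 other cells (0.221 CPM). At this depth Scd2 was therefore close to the limit of 3 counts in the cells outside those clusters, and no ratio between diets is given for it.

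In the polyunsaturated route, Fads2, which places the first new double bond in linoleic and alpha-linolenic acid, stood at 610 CPM in HFD_HDCA (3536 counts), 587 CPM in HFD (2192 counts) and 164 CPM in ND (699 counts). The high fat libraries were close to each other, with overlapping intervals of 590 to 631 and 563 to 612 CPM, and ND lay well below at 152 to 176 CPM. The log2 ratio of HFD to ND was 1.84 (1.72 to 1.97), and 62 of the 7855 measured genes had a higher ratio.

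Fads1, which places the next double bond and yields arachidonic and eicosapentaenoic acid, stood at 424 CPM in HFD_HDCA (2459 counts), 333 CPM in HFD (1242 counts) and 174 CPM in ND (742 counts). Its order was HFD_HDCA, HFD, ND from high to low, with no overlap of intervals. HFD stood to ND at a log2 ratio of 0.94 (0.81 to 1.07), just under the 2-fold call.

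Elovl2, which lengthens the longest polyunsaturated chains on the way to docosahexaenoic acid, had the same order. It stood at 892 CPM in HFD_HDCA (5168 counts), 745 CPM in HFD (2784 counts) and 421 CPM in ND (1801 counts), with a log2 ratio of HFD to ND of 0.82 (0.74 to 0.91). Elovl5, which acts between the desaturases, stood at 656 CPM in HFD_HDCA (3804 counts), 476 CPM in HFD (1777 counts) and 418 CPM in ND (1785 counts). HFD and ND were close to each other and HFD_HDCA lay above both. The Elovl5 ratio of HFD to ND was 0.19 (0.09 to 0.28) on the log2 scale, and its sign turned in 7 of 18 alternative settings.

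**Figure D1:**
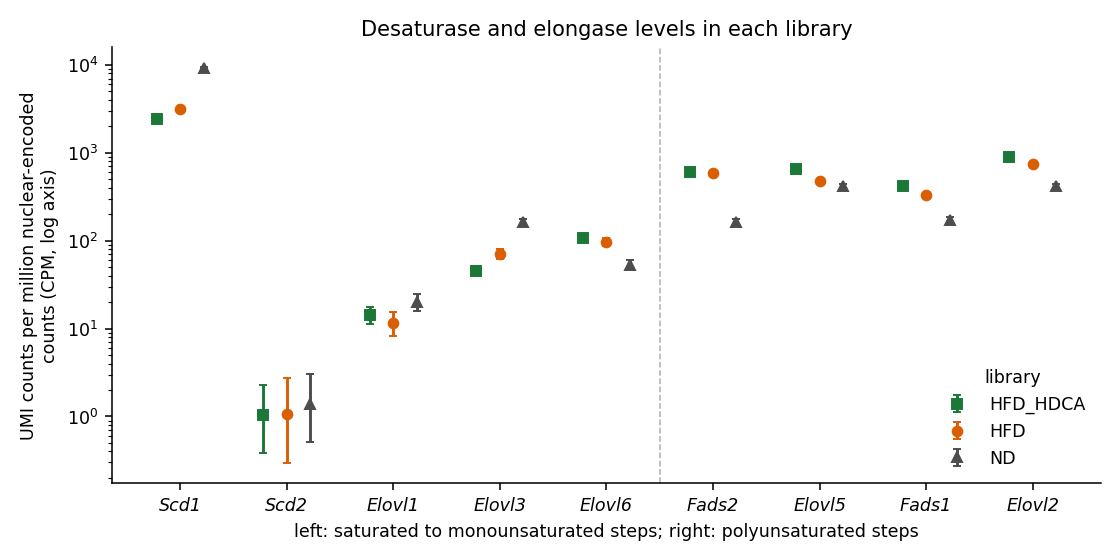
Level of each gene in each library, in CPM on a log axis, with exact Poisson 95% intervals (counting error only; some are smaller than the symbol). Scd1 and Elovl3 are lowest in HFD_HDCA and highest in ND, while Fads1, Fads2, Elovl2, Elovl5 and Elovl6 are highest in HFD_HDCA and lowest in ND; heights of different genes are not comparable, since counts were not scaled for capture.

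Summed over the 5 genes of the saturated to monounsaturated route, the level was 2580 CPM in HFD_HDCA, 3358 CPM in HFD and 9568 CPM in ND, nearly all of it Scd1. Without Scd1 the sum was 167 CPM in HFD_HDCA, 180 CPM in HFD and 237 CPM in ND. The 4 genes of the polyunsaturated route summed to 2583 CPM in HFD_HDCA, 2141 CPM in HFD and 1176 CPM in ND. UMIs of the first route per UMI of the second were 0.999 in HFD_HDCA, 1.57 in HFD and 8.14 in ND. Single pairs of genes also differed between libraries, although such ratios only set libraries side by side and say nothing of relative enzyme amounts. Scd1 UMIs per Fads2 UMI were 3.95 (3.81 to 4.10) in HFD_HDCA, 5.41 (5.17 to 5.67) in HFD and 57.1 (53.0 to 61.6) in ND. Elovl3 UMIs per Elovl6 UMI, both of the first route, were 0.431 (0.372 to 0.498) in HFD_HDCA, 0.723 (0.614 to 0.849) in HFD and 3.08 (2.64 to 3.59) in ND. The median log2 ratio of HFD to ND was -0.99 over the 4 measured genes of the first route, which leaves out Scd2, and 0.88 over the 4 of the second. That of HFD_HDCA to ND was -1.15 over the 4 measured genes of the first route and 1.19 over those of the second. With Scd2 included, the first-route median was -0.78 for HFD to ND and -0.47 for HFD_HDCA to ND.

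Adding HDCA to the high fat diet went with smaller differences, and none of the 8 measured members reached 2-fold in either direction. Of all measured genes, 1.63% lay past 2-fold on the higher side and 1.48% on the lower side, and their median log2 ratio was 0.05. Scd1 was 1.32-fold lower in HFD_HDCA than in HFD, a log2 ratio of -0.40 (-0.43 to -0.36), and Elovl3 was 1.54-fold lower, a log2 ratio of -0.62 (-0.87 to -0.37). Elovl5 had the largest positive ratio among the members at 0.46 (0.38 to 0.55), before Fads1 at 0.35 (0.25 to 0.45) and Elovl2 at 0.26 (0.19 to 0.33). The intervals of Fads2 (-0.02 to 0.13), Elovl6 (-0.07 to 0.31) and Elovl1 (-0.23 to 0.88) included 0. The 4 polyunsaturated members had ratios above 0 with a median of 0.30, except that Fads2 turned to -0.01 with median-of-ratios scaling, to -0.11 in the periportal zone and to -0.15 in the periportal range shared by the libraries. The median of the saturated to monounsaturated route was -0.14 over its 4 measured genes and -0.10 with Scd2 included.

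Set against ND, the HFD_HDCA library held 4 of 8 measured members at least 2-fold higher and 2 of 8 at least 2-fold lower, where 2.62% and 2.97% of all measured genes were past those limits and the median log2 ratio of all was -0.01. The 4 were Fads2 at 1.90 (1.78 to 2.02), Fads1 at 1.29 (1.17 to 1.41), Elovl2 at 1.08 (1.004 to 1.16) and Elovl6 at 1.003 (0.78 to 1.23), the last just at the limit. The 2 lower ones were Scd1 at -1.95 (-1.98 to -1.92) and Elovl3 at -1.83 (-2.04 to -1.62). Elovl5 was at 0.65 (0.57 to 0.73) and Elovl1 at -0.47 (-0.93 to -0.02). This comparison shares its libraries with the other 2, so it is no separate evidence of them. With each barcode weighted equally, Elovl2 at 0.997 came just under and Elovl6 at 0.66 well under the limit, which left 2 members at least 2-fold higher. Elovl6 was at least 2-fold higher in 7 of 18 alternative settings, so its call depended on the setting.

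**Figure D2:**
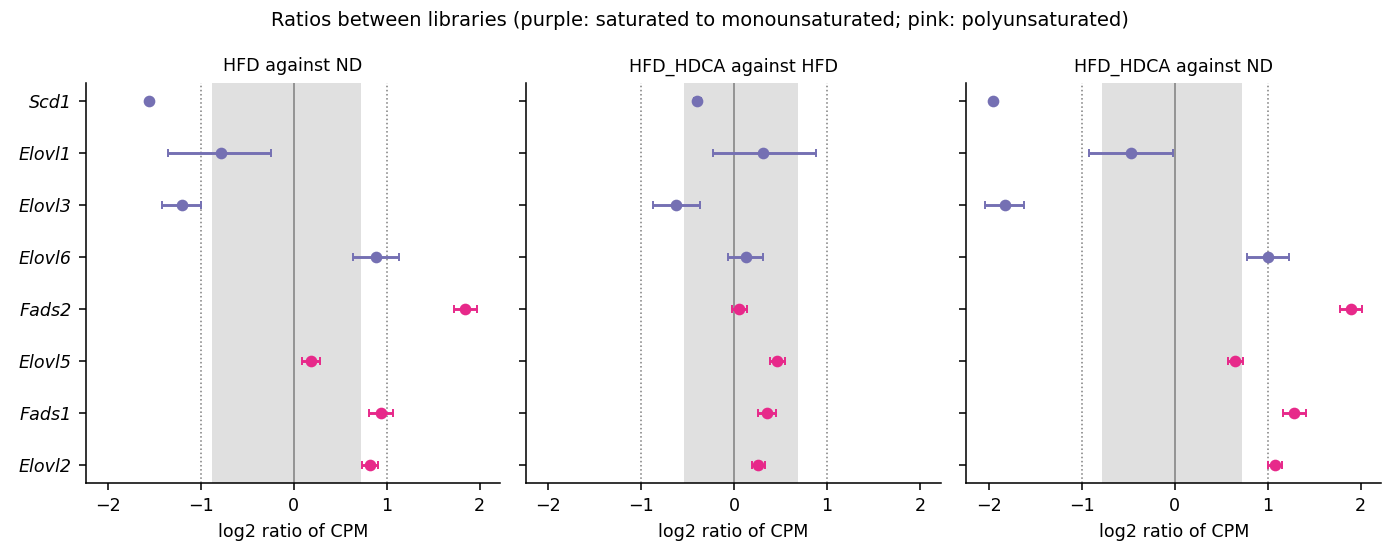
Log2 ratio of each measured gene in the 3 comparisons of libraries, with 95% intervals from counting error only. Grey bands span the central 90% of all 7855 measured genes and dotted lines mark 2-fold; in both comparisons with ND, Scd1 and Elovl3 lie below the band and Fads1, Fads2, Elovl2 and Elovl6 above it, while in HFD_HDCA against HFD only Elovl3 lies outside.

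Per cell, Scd1 was lower in HFD_HDCA and HFD than in ND at low, middle and high percentiles of the cells alike. When each cell was thinned to 500 nuclear-encoded UMIs, the median cell held 1 Scd1 UMI in HFD_HDCA, 1 in HFD and 5 in ND. The cell at the 10th percentile held 0 in HFD_HDCA, 0 in HFD and 2 in ND, and the cell at the 90th held 3 in HFD_HDCA, 4 in HFD and 10 in ND. Cells with at least 1 Scd1 UMI made up 61.0% of 2821 cells in HFD_HDCA, 65.9% of 1973 in HFD and 97.1% of 2437 in ND. Thinning left out 179 shallower cells of HFD_HDCA, 925 of HFD and 339 of ND. Before thinning the shares were 81.8% in HFD_HDCA, 79.5% in HFD and 99.8% in ND. In the endothelial-like cells, thinned alike, the shares were 46.9% of 32 in HFD_HDCA, 45.5% of 11 in HFD and 92.0% of 87 in ND, at medians before thinning of 832 UMIs in HFD_HDCA, 632.5 in HFD and 986 in ND. Most ND cells of both kinds thus held an Scd1 UMI, and the share of cells with a UMI is not read as a difference in expressing cells.

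Fads2 was seen in 26.9% of thinned cells in HFD_HDCA, 24.1% in HFD and 6.69% in ND, and before thinning in 54.7% in HFD_HDCA, 42.4% in HFD and 19.2% in ND. Endothelial-like cells gave 12.5% (4 of 32) in HFD_HDCA, 9.09% (1 of 11) in HFD and 0% (0 of 87) in ND. For Elovl2 the thinned shares were 31.9% in HFD_HDCA, 27.2% in HFD and 17.2% in ND, and before thinning 58.7% in HFD_HDCA, 45.8% in HFD and 36.5% in ND. Its endothelial-like shares were 9.38% in HFD_HDCA, 18.2% in HFD and 9.20% in ND. In each library the share of Fads2 and Elovl2 lay above the endothelial-like value, but few endothelial-like cells give wide exact binomial intervals. That of Fads2 was 3.51% to 29.0% in HFD_HDCA and 0.230% to 41.3% in HFD, and both hold the share of all cells, while in ND it was 0% to 4.15%. That of Elovl2 was 1.98% to 25.02% in HFD_HDCA, below the share of all cells, but 2.28% to 51.8% in HFD and 4.05% to 17.3% in ND, which hold it.

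**Figure D3:**
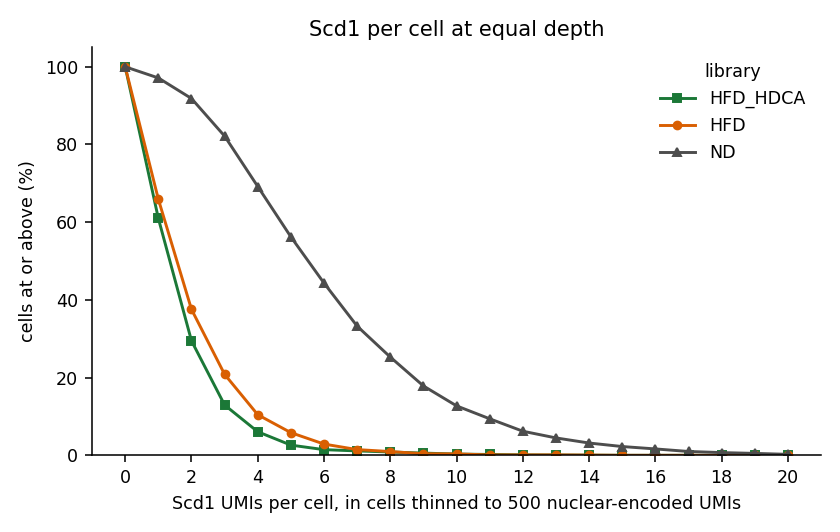
Percentage of cells (vertical axis) holding at least the number of Scd1 UMIs on the horizontal axis, after each cell was thinned to 500 nuclear-encoded UMIs. The ND curve lies to the right of the HFD_HDCA and HFD curves along its length, with medians of 1 (HFD_HDCA), 1 (HFD) and 5 (ND) UMIs.

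The lobule position of a hepatocyte was read from 8 pericentral and 8 periportal landmark genes, as the pericentral share of all landmark UMIs, in barcodes with at least 5 such UMIs. The barcodes of each library were then cut into 3 zones of about equal size, from pericentral to periportal, 2748 barcodes in HFD_HDCA, 2282 in HFD and 2002 in ND. A further 8 pericentral and 8 periportal genes that were not used for the order all differed in the direction of their side in every library. These zones are relative to each library: with ranges shared by the libraries, 41.7% of HFD_HDCA, 39.6% of HFD and 9.89% of ND barcodes fell in the pericentral range. The periportal zones were also the deepest, while the pericentral ones were shallower. Median UMIs of the pericentral and the periportal zone were 1305 and 3068 in HFD_HDCA, 1354 and 2366 in HFD, and 1051 and 3216 in ND. Barcodes within 0.05 of a limit between zones numbered 729 in HFD_HDCA, 430 in HFD and 499 in ND.

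Scd1 ran in opposite directions along the lobule on the high fat diets and on the normal diet. In HFD_HDCA it stood at 1637 CPM in the pericentral, 2334 CPM in the middle and 2986 CPM in the periportal zone. In HFD the values were 2141, 3012 and 4024 CPM in the same order. In ND they ran the other way, with 10971, 9965 and 7253 CPM. The log2 ratio of the pericentral to the periportal zone was -0.87 (-0.93 to -0.81) in HFD_HDCA, -0.91 (-0.98 to -0.84) in HFD and 0.60 (0.56 to 0.63) in ND. Among barcodes with 1000 to 4000 UMIs, where depths are closer, the ratio was -1.07 in HFD_HDCA, -0.93 in HFD and 0.39 in ND. With ranges shared by the libraries it was -0.81 in HFD_HDCA, -0.84 in HFD and 0.51 in ND. No test of the difference between libraries was possible. Cells of 1 library are not replicates, and whether Scd1 counts from other droplets add to each zone was not tested.

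Elovl3 was higher in the pericentral zone of every library. It stood at 63.2, 47.4 and 31.5 CPM from pericentral to periportal in HFD_HDCA, at 115, 83.2 and 28.1 CPM in HFD and at 314, 177 and 88.8 CPM in ND. Its pericentral to periportal log2 ratio was 1.001 (0.59 to 1.43) in HFD_HDCA, 2.02 (1.52 to 2.56) in HFD and 1.82 (1.54 to 2.11) in ND. Elovl3 was the 1 of 7 members measured in zones that reached 2-fold. Of all genes measured there, 2.65% of 4672 in HFD_HDCA, 3.54% of 3216 in HFD and 2.84% of 3348 in ND were at least 2-fold higher in the pericentral zone. The members at least 2-fold lower numbered 0 in each library, against 1.78% of genes in HFD_HDCA, 2.52% in HFD and 1.61% in ND. The call of Elovl3 in HFD_HDCA was lost in 4 of 9 alternative settings.

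Elovl2 leaned the other way, to the periportal side in every library. It stood at 798, 823 and 1007 CPM from pericentral to periportal in HFD_HDCA, at 594, 620 and 973 CPM in HFD and at 328, 411 and 500 CPM in ND. Its pericentral to periportal log2 ratio was -0.33 (-0.43 to -0.24) in HFD_HDCA, -0.71 (-0.84 to -0.58) in HFD and -0.61 (-0.80 to -0.41) in ND, all short of 2-fold.

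Elovl6 and Elovl5 differed between libraries in their zone pattern. Elovl6 had a log2 ratio of pericentral to periportal of -0.74 (-1.03 to -0.46) in HFD_HDCA and -0.80 (-1.19 to -0.43) in HFD, while in ND it was 0.42 with an interval that included 0 (-0.09 to 0.90). Elovl5 was level in HFD_HDCA at -0.04 (-0.14 to 0.07), lower pericentrally in HFD at -0.83 (-1.001 to -0.67) and higher pericentrally in ND at 0.43 (0.26 to 0.60). Of the desaturases of the polyunsaturated route, Fads1 had ratios of 0.12 in HFD_HDCA, -0.17 in HFD and 0.08 in ND, each with an interval that included 0. In HFD it was lowest in the middle zone, at 273 CPM (237 to 312) against 367 CPM (337 to 399) in the periportal zone. Fads2 was lower pericentrally in HFD at -0.45 (-0.60 to -0.31), and at -0.65 among barcodes with 1000 to 4000 UMIs. Its ratios of -0.08 (-0.19 to 0.03) in HFD_HDCA and 0.04 (-0.26 to 0.32) in ND had intervals that included 0. Over 9 alternative settings the Fads2 ratio ran from -0.26 to -0.06 in HFD_HDCA and from -0.14 to 0.37 in ND.

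**Figure D4:**
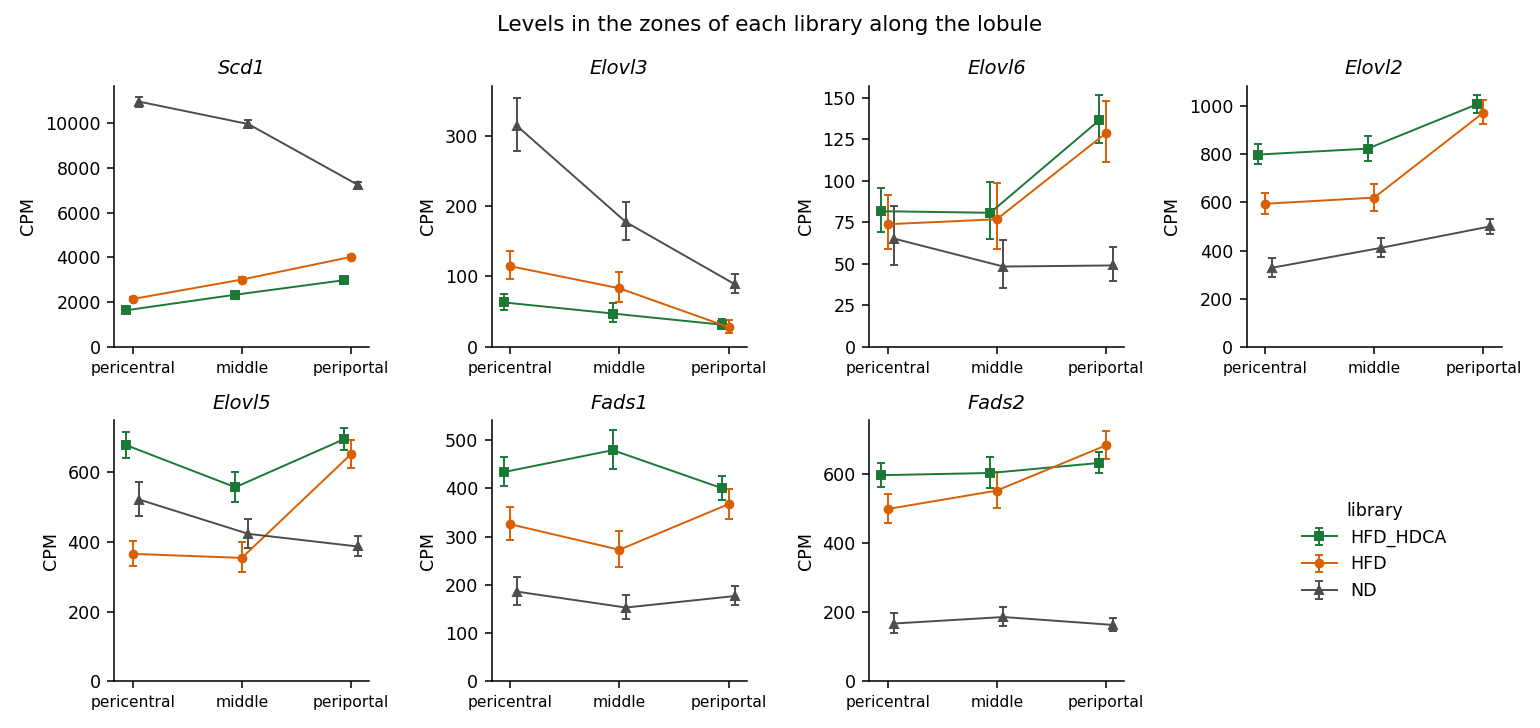
Level (CPM, linear axis from 0) of the 7 genes measured in zones, in the pericentral, middle and periportal zone of each library, with exact Poisson 95% intervals. The Scd1 line climbs towards the periportal zone in HFD_HDCA (to 2986 CPM) and HFD (to 4024 CPM) and descends in ND (to 7253 CPM), while Elovl3 descends and Elovl2 climbs in all 3 libraries.

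The size of the diet difference varied between zones for several members. Scd1 of HFD against ND had log2 ratios of -2.36 (-2.42 to -2.29) in the pericentral zone, -1.73 (-1.79 to -1.66) in the middle and -0.85 (-0.89 to -0.81) in the periportal zone. Within shared ranges the ratios were -2.30, -1.82 and -0.95 in the same order. Elovl6 of HFD against ND ran from 0.18 (-0.32 to 0.69) in the pericentral zone through 0.66 (0.10 to 1.25) to 1.39 (1.03 to 1.76) in the periportal zone, where it was past 2-fold. Elovl5 of HFD against ND changed sign, with -0.51 (-0.71 to -0.32) in the pericentral and 0.75 (0.61 to 0.89) in the periportal zone. Fads2 stayed past 2-fold throughout, with 1.57, 1.56 and 2.06, and so did Elovl3 with -1.45, -1.08 and -1.65.

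For HFD_HDCA against HFD, the ratios of the polyunsaturated members were higher in the pericentral and middle zones than in the periportal zone. Elovl5 had log2 ratios of 0.89 (0.73 to 1.05) in the pericentral, 0.65 (0.45 to 0.86) in the middle and 0.09 (-0.02 to 0.21) in the periportal zone. Fads1 had 0.41 (0.23 to 0.59), 0.81 (0.58 to 1.05) and 0.12 (-0.02 to 0.27) in that order, and Elovl2 had 0.43 (0.29 to 0.56), 0.41 (0.25 to 0.57) and 0.05 (-0.04 to 0.14). Fads2 differed less, with 0.26 (0.11 to 0.41), 0.13 (-0.05 to 0.30) and -0.11 (-0.22 to 0.0009), so that only its pericentral interval lay above 0. Scd1 was lower by a like amount in each zone, at -0.39, -0.37 and -0.43. Elovl3 was lower in the pericentral zone at -0.86 (-1.23 to -0.49), while its periportal ratio of 0.16 had an interval of -0.38 to 0.73.

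**Figure D5:**
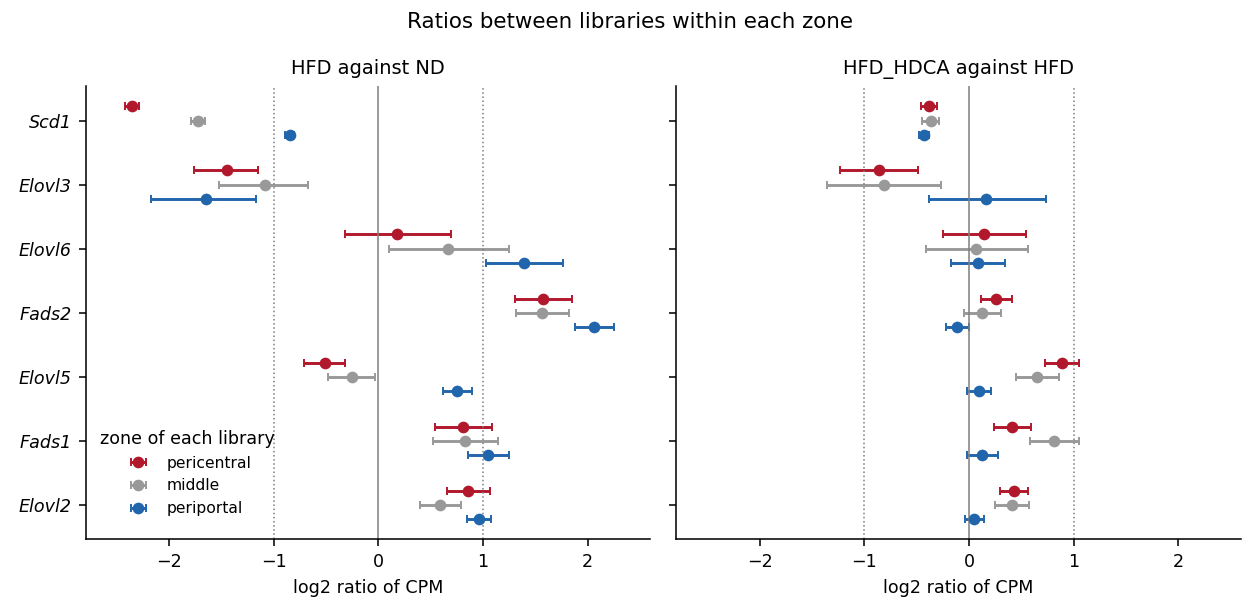
Log2 ratio within each zone for HFD against ND (left) and HFD_HDCA against HFD (right), with 95% intervals from counting error only; dotted lines mark 2-fold. At the left the Scd1 points spread from -2.36 (pericentral) to -0.85 (periportal) and the Elovl5 points cross 0; at the right the periportal points of Elovl5, Fads1 and Elovl2 lie near 0.

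Of 65 other genes of the pathway listed for comparison, 56 were measured. In HFD against ND, 3 of these passed 2-fold on the higher side and 1 on the lower, where 2.85% and 3.53% of all measured genes did. Lpin1, a phosphatidate phosphatase, had 984 CPM in HFD and 43.5 CPM in ND, a log2 ratio of 4.50. Thrsp, a lipogenic protein, was at 1.89 and the nuclear receptor gene Ppara at 1.21. Acacb, an acetyl-CoA carboxylase, was at -1.25 on 36 and 99 counts. The 10 genes listed with fatty acid synthesis upstream of the desaturases, Acacb, Thrsp and Mlycd among them, went both ways around a median of -0.10. Not all of them encode enzymes of synthesis, so this median describes the list only. Acaca, the other acetyl-CoA carboxylase, was at -0.94 (-1.27 to -0.63) and Me1, the malic enzyme that supplies NADPH, at -0.95 (-1.13 to -0.77), on the side of Scd1 though short of 2-fold. Fasn, the fatty acid synthase, was at -0.09 (-0.22 to 0.04), and Srebf1, which encodes SREBP-1c, at -0.44 (167 CPM in HFD and 226 CPM in ND). Mlxipl, which encodes ChREBP, was at -0.82 (152 CPM in HFD and 269 CPM in ND).

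In HFD_HDCA against HFD the same upstream list had a median log2 ratio of 0.76, although Scd1 was lower. Acacb was at 1.74 and Me1 at 1.58 (303 CPM in HFD_HDCA and 101 CPM in HFD). Fasn was at 0.72 and Acly, the ATP citrate lyase, at 0.69, both short of 2-fold. Over all 56 measured genes, 5 passed 2-fold on the higher side and 1 on the lower, where 1.63% and 1.48% of all measured genes did. The 5 were Acacb, Me1, the peroxisomal transporter gene Abcd2 (1.79), the elongation-cycle dehydratase gene Hacd1 (1.11) and the acyl-CoA synthetase gene Acsl3 (1.07). Lpin1 was the lower one at -1.02. In HFD_HDCA against ND, 6 of the 56 were at least 2-fold higher and 1 lower, where 2.62% and 2.97% of all measured genes were. The lower one was Mlxipl at -1.24. Lpin1 at 3.48, Thrsp at 1.72, Acsl3 at 1.42 and Abcd2 at 1.06 were among those higher. Insig1, which holds SREBP precursors in the endoplasmic reticulum and is itself a target of SREBP, was at 1.53 (1232 CPM in HFD_HDCA and 426 CPM in ND).

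Genes whose levels followed those of a member most closely were sought over the 9 library zones, by Pearson's r of log2(CPM + 5) among 2799 genes. The 9 points come from 3 libraries, so an r close to 1 can rest on the difference between libraries alone and is a description. For Fads2 the closest were Thrsp (r = 0.992) and Mfsd2a (r = 0.990), a transporter of lysophospholipids that carry docosahexaenoic acid. Mfsd2a read 274 CPM in HFD_HDCA, 216 CPM in HFD and 15.4 CPM in ND. For Fads1, Sqle (r = 0.975), an enzyme of cholesterol synthesis, was among the closest. Sqle read 98.9 CPM in HFD_HDCA, 52.5 CPM in HFD and 12.4 CPM in ND. For Elovl2 the closest were Maob (r = 0.986) and Stard4 (r = 0.962), for Scd1 Hhex (r = 0.984) and S100a1 (r = 0.960), and for Elovl3 Eif2s2 (r = 0.964) and Psmd11 (r = 0.951). Elovl5 was closest to Ep300 (r = 0.929) and Elovl6 to Ptma (r = 0.948). For Elovl1 the closest were Capzb (r = 0.980) and St3gal1 (r = 0.929), but with 9 to 42 Elovl1 counts in a zone these values rest on few counts. Among the members, Fads1 and Fads2 had r = 0.926, Elovl2 and Elovl3 had r = -0.97, and Elovl5 and Scd1 had r = -0.26.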

How the data were processed

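The authors deposited 1 matrix of UMI counts per library, unnormalized. Cell Ranger 5.0.0 is named as their source per the file headers, and mm10 as the build in the submitters' processing notes. How barcodes were chosen, the aligner settings and the use of strand are not given in the sources that were used. Barcodes holding 200 genes or more, and no more than 50% mitochondrial counts, were kept, counts were summed per library or zone, and CPM were taken over nuclear-encoded counts. Mitochondrial counts were 11.1% of those kept in HFD_HDCA, 13.6% in HFD and 13.8% in ND. Doublets were not removed.

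Cells were clustered together (scanpy 1.11.5; 2000 variable genes, 30 components, 15 neighbours, Leiden resolution 1) into 14 clusters. The one led by 8 endothelial markers was called endothelial-like, and 1 had macrophage markers among immunoglobulin genes. Other clusters were not named. The zone order, ratios and intervals were computed with numpy 2.4.6, pandas 2.3.3 and scipy 1.17.1 under Python 3.11.15, and the computation was tested on simulated data. Positions come from GENCODE annotation of GRCm38.

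The members, pathway lists and markers were chosen with earlier results of these data known. All 9 members are reported. Of the pathway lists, genes at least 2-fold apart are named, at most the 6 largest per comparison. Fasn, Acly, Acaca, Srebf1, the Mlxipl and Me1 values of HFD against ND and the clock genes were named after their values were seen. The 2 genes most like each member are by highest r, in genes with at least 50 CPM in 1 library. Alternatives tried were other scaling, filters, weights, thinning, zones, count minimums and added counts. One gene close in pattern to a member is not reported here.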

Additional observations from a re-analysis of the deposited data

Results flagged for a closer look

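Scd1 ran in opposite directions along the lobule in different libraries. Its log2 ratio of the pericentral to the periportal zone was -0.867 in HFD_HDCA and -0.910 in HFD, against 0.597 in ND. Elovl5 had a ratio of -0.832 in HFD against 0.431 in ND. These differences between libraries were not tested, since each diet has 1 library.

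Barcodes with at least 200 genes and more than 50% mitochondrial counts were not used above, and Fads2 differed from ND there in both high fat libraries. Against ND, the log2 ratio of Fads1 was 1.40 (0.77 to 2.12) in HFD_HDCA and 0.53 in HFD, where its levels of 220 CPM (123 to 363) in HFD and 155 CPM (101 to 227) in ND had overlapping intervals. Fads2 had a ratio of 1.57 (1.08 to 2.11) in HFD_HDCA and of 1.40 (0.77 to 2.03) in HFD. These rest on 502 barcodes of HFD_HDCA, 200 of HFD and 454 of ND, in which Scd1 read 3123 CPM in HFD_HDCA, 3582 CPM in HFD and 12447 CPM in ND.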

How the results depend on the processing

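Signs of Scd1, Elovl3, Fads1, Fads2 and Elovl2 against ND were kept in all 18 alternatives, with Fads2 of HFD between 1.26 and 2.06 and Scd1 of HFD between -2.36 and -0.85 on the log2 scale. The 4 alternatives (the 3 ranges shared by libraries, and leaving out the 3 largest clusters) and 2 of the 9 for zones (by depth) were chosen after seeing the data. The cause of each move was not tested. Median-of-ratios scaling raised every log2 ratio of HFD to ND by 0.13, the median of all genes included, which put Fads1 (1.06) and Elovl6 (1.01) past 2-fold beside Fads2, 3 members in all, where 3.62% of all measured genes were. Elovl6 of HFD_HDCA against ND reversed to -0.0106 in the shared pericentral range.

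For HFD against ND, the members at least 2-fold higher numbered 3 in the periportal zone (3.68% of all measured genes there), 4 in the shared periportal range (2.92%) and 2 without the 3 largest clusters (2.99%); those lower numbered 1 in that zone (4.51%) and 1 in that range (5.32%). The median of the saturated to monounsaturated steps, Scd2 included, was -0.78 in the main setting, -1.45 in the pericentral zone and -1.55 in the shared middle range. The -1.55 is the ratio of Scd2 itself, at 0 CPM in HFD and 1.34 CPM in ND there, and is not read as a shift of the route. The median of the polyunsaturated steps was 1.01 with median-of-ratios scaling, 0.47 in barcodes above 50% mitochondrial, 0.71 in the middle zone, 1.01 in the periportal zone and 1.09 in the shared periportal range. For HFD_HDCA against HFD, barcodes above 50% mitochondrial gave 2 members higher (12.9% of all genes) and 1 lower (24.2%). The higher ones were Elovl5 and, on only 7 counts in HFD_HDCA and 0 in HFD, Elovl1. Elovl3 was the lower one, on only 5 counts in HFD_HDCA and 9 in HFD. The polyunsaturated median in these barcodes was 0.71. That median was 0.42, 0.53 and 0.071 in the pericentral, middle and periportal zones and 0.47, 0.46 and 0.076 in the shared ranges. For HFD_HDCA against ND, 2 members were higher in barcodes above 50% mitochondrial (12.7% of all genes) and 2 with barcodes weighted equally (2.96%). The saturated to monounsaturated median, -0.47 in the main setting, was -2.31 in the pericentral zone, -1.78 in the middle, -1.26 with zones weighted equally, and -2.54 and -2.11 in the shared pericentral and middle ranges. These medians include Scd2, which had 0 counts in HFD_HDCA and 1 in ND in both the pericentral and the middle zone. In the shared pericentral range Scd2 was at 0 CPM in both libraries. The -1.78 of the middle zone and the -2.54 of the shared pericentral range are ratios of Scd2 itself, the latter set only by the 0.5 added to each count. These moves are therefore not read as a shift of the route. The polyunsaturated median was 1.32 in the middle zone and 1.29 in each of the shared pericentral and middle ranges.

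All genes at least 2-fold apart made up 6.38% (HFD against ND), 3.11% (HFD_HDCA against HFD) and 5.59% (HFD_HDCA against ND). With a summed count of at least 20 they made up 12.7%, 7.65% and 10.5% in that order, with no minimum 27.6%, 17.4% and 26.8%, and with at least 500 they made up 2.03% for HFD_HDCA against HFD. Between zones of HFD, 1 member, Scd1, was at least 2-fold lower pericentrally with the outer 20% of barcodes (3.3% of all genes) and with 10 landmark UMIs (3.2%). At 1000 to 4000 UMIs it was Elovl6 instead (3.23%). In HFD_HDCA, 1 member, Scd1, was lower with the outer 20% of barcodes (2.57%) and at 1000 to 4000 UMIs (2.38%). In that library 0 members were higher with shared limits (3.12%), with 5 added to each count (2.57%), with barcodes weighted equally (1.9%) and at 1000 to 4000 UMIs (3.17%). No paired analysis was possible because each diet has 1 library and the labels carry no replicate numbers. Elovl1 of HFD_HDCA against ND turned sign in 3 of 18 alternatives; it and Scd2 are limited by their counts.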
